A study of Mus musculus with 1248 samples.

Results

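The expression of 8 genes, 7 for secreted proteins of the matrix around cells and 1 for a nuclear protein, was followed in single cells of a mouse mammary carcinoma in culture, in bone and in the mammary fat pad. They were Ctgf, Cyr61, Wisp1 and Wisp2 of the CCN family, Thbs1, Tnc, Fn1 and Ankrd1. The 8 were picked by their symbols out of 40756 genes in the count table, with their levels in these cells already known, so every level and ratio below is a description and none is a test. All 8 symbols were found.

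CCN proteins are secreted matricellular proteins: they bind integrins and heparan sulfate at the cell surface and signal to cells rather than build the matrix itself. Thrombospondin and tenascin act in the same way, while fibronectin forms the fibrils to which the others and the integrins attach. Ctgf, Cyr61 and Ankrd1 are textbook targets of YAP and TAZ, the co-activators of the TEAD transcription factors that are held back by the Hippo pathway and released when cells spread on a stiff surface, and TGF-beta also induces several of the 8. In bone, TGF-beta released from the matrix and the CCN proteins of tumour cells are known from studies of breast cancer metastasis.

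The cells came from the BALB/c mammary carcinoma line 4T1 and from 4T1.2, a subline of it, both carrying firefly luciferase and mCherry. Cells were injected into the left side of the heart of female BALB/c mice, and mCherry-positive cells were sorted from hindlimb bones at day 4, 10 or 16 for 4T1 and at day 4 for 4T1.2. The other groups were cultured cells of each line and 4T1 cells from a mammary fat pad tumour at day 22. A full-length RNA library was made from each sorted cell, and no label names the animal, plate or culture of a cell, so each of the 7 groups is 1 sample and no p-value is given.

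Of 1248 cells 1218 passed the filter. A well was called a tumour well when its summed CPM (counts of a gene per 1000000 counts in genes) of the keratins Krt8 and Krt18 was above that of the blood cell genes Ptprc, Coro1a, Laptm5 and Rac2, and a host well otherwise. That gave 501 tumour wells. For 4T1 they were 54 from culture, 137, 54 and 71 from bone at days 4, 10 and 16, and 85 from the fat pad, and for 4T1.2 they were 53 from culture and 47 from bone. The 717 host wells were 359, 41 and 119 at days 4, 10 and 16, 10 in the fat pad and 188 in 4T1.2 day 4 bone. Median depth per tumour well ran from 2981083 to 3346557 counts over the groups, and median detected genes from 9840 to 11391. Host wells passed the mCherry gate too: at 4T1 day 4 their median was 1905 CPM of mCherry against 405 in tumour wells, while the luciferase reporter stood at 0.616 against 64.0 CPM. All 7 epithelial markers listed had a median of 10 CPM or more in 4T1 culture, day 10 bone and fat pad wells, but only Krt8, Krt18 and Krt7 did in both groups of 4T1.2.

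In 4 tumour wells the counts stood apart from the rest of the group. A day 10 well held endothelial markers at 7406 CPM, with Pecam1 at 1452, and only 53.0 CPM of keratin. A day 16 well held fibroblast and stromal markers at 74210 CPM, mostly Col1a1 at 43355, and only 49.2 CPM of keratin. At day 16, 1 well had 34104356 counts, which is 14.7% of all counts of its group, and another had 11568261 counts. In 4T1.2 day 4 bone the keratin sum was less than 10-fold above the blood sum in 25 of 47 tumour wells, against 11 of 137 in 4T1 at day 4, 9 at day 10, 7 at day 16 and 0 elsewhere. Results that rest on these wells are given with and without them. The lists of related genes below were recounted only without the stromal and endothelial wells.

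In 22 wells the keratin and blood sums lay within 2-fold of each other, 12 just on the tumour side and 10 just on the host side. Median Cyr61 was 536 CPM in the 12 and 2019 CPM in the 10, median Thbs1 75.9 and 191 CPM, and median Fn1 210.4 and 223 CPM. Median Ankrd1 was 41.7 and 17.1 CPM and median Ctgf 7.59 and 0.577 CPM. Wisp1 had a median of 0 on both sides, while Wisp2 and Tnc were at 0 in all 10 host-side wells and reached 211.2 and 3083 CPM on the tumour side. The wells nearest the limit thus held members on either side of it.

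Promoter sequence was at hand for Cyr61, Ankrd1 and Tnc among the 8, from RefSeq on build GRCm38.p6. The 250 bases upstream of the start site of Cyr61 and Ankrd1 are shown because these genes varied together from cell to cell (below) and both carry the core of the TEAD site, GGAATG, which is in capitals together with its complement CATTCC. They lie at chr3:145649986-145650235 and chr19:36119845-36120094, both on the minus strand.
Cyr61: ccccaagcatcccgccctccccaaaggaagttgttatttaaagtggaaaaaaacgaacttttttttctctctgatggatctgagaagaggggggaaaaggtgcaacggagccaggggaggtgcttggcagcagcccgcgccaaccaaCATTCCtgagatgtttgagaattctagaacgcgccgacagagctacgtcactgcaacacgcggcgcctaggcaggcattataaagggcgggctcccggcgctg
Ankrd1: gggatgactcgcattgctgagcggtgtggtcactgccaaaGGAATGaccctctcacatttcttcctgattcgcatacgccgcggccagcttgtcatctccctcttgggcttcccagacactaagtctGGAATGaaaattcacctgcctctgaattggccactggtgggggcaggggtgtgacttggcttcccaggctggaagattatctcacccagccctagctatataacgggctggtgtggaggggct
Cyr61 had 1 match, 103 bases before the start, and Ankrd1 had 2, at 210 and 123 bases. Read on both strands, GGAATG occurred in 12.6% of 32851 mouse promoter windows of 250 bases. The other motifs searched were TGANTCA (AP-1), in 6.75% of windows and in neither of the pair shown, CAGACA (a SMAD element), in 17.1% of windows and with 1 match in Ankrd1, and TATAAA, in 12.4% of windows and with 1 match in Cyr61. Neither of the 2 start sites listed for Tnc had a GGAATG. None of these matches overlapped another. A match is a run of letters and says nothing of binding. No promoter is shown for Ctgf, Wisp1, Wisp2, Thbs1 and Fn1.

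Cyr61 (chr3:145646976-145649981, minus strand, mm10) encodes CCN1, a secreted ligand of integrins. In tumour wells its lowest, median and highest levels were 4.74, 359 and 2907 CPM in 4T1 culture, 5.20, 1555 and 12322 at day 4, 10.7, 727 and 15968 at day 10, and 12.6, 1073 and 17614 at day 16. They were 8.63, 479.5 and 7497 CPM in the fat pad, 1.46, 39.8 and 1018 in 4T1.2 culture, and 32.4, 825 and 34944 in 4T1.2 day 4 bone. Day 4 bone was highest by median and 4T1.2 culture lowest, and the interquartile range of each group overlapped that of its neighbour in this order. Per kilobase of exon Cyr61 was the most abundant of the 8 in every group, at 70.4 CPM per kb in 4T1.2 culture up to 2085 at day 16. Its sums were unevenly spread: the top 5 wells held 14.7% of its counts at day 4, but 67.1% at day 16 and 60.6% in 4T1.2 day 4 bone. The deepest well of day 16 alone stood at 14184 CPM.

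Ctgf (chr10:24595442-24598683, plus strand) encodes CCN2, which binds integrins and TGF-beta. Its lowest, median and highest levels were 0.718, 131 and 913 CPM in 4T1 culture, and 0, 0.272 and 626 CPM at day 4 in bone. Day 10 gave 0, 0.349 and 741 CPM, day 16 gave 0, 1.64 and 1634, and the fat pad 0, 2.14 and 2292. In 4T1.2 they were 0, 14.4 and 337 CPM in culture and 0, 10.8 and 736 CPM at day 4 in bone. In 4T1 the gene was thus well above 0 in most cultured wells and near 0 in most wells from bone and fat pad, where a minority reached or passed the cultured median. At least 10 CPM was found in 46 of 54 cultured wells (85.2%, exact 95% interval 72.9 to 93.4), 36 of 137 at day 4 (26.3%, 19.1 to 34.5), 14 of 54 at day 10, 27 of 71 at day 16 and 26 of 85 in the fat pad. In 4T1.2 the same level was found in 31 of 53 cultured wells and 24 of 47 wells of day 4 bone.

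Wisp1 (chr15:66891320-66923201, plus strand) encodes CCN4, a CCN protein first described as a Wnt-induced gene. Its median was 5.72 CPM in 4T1 culture, with wells from 0 to 196 CPM, and under 1 CPM in the 6 other groups. The highest wells were at 61.4 CPM at day 4, 199.8 at day 10, 584 at day 16 and 475 in the fat pad. In 4T1.2 the highest well was at 20.1 CPM in culture and at 269.9 CPM in day 4 bone. Wells with 10 CPM or more were 23 of 54 in culture, 8 of 137 at day 4, 14 of 54 at day 10, 23 of 71 at day 16 and 12 of 85 in the fat pad. In 4T1.2 they were 1 of 53 and 6 of 47, and 94.6% of the counts in 4T1.2 day 4 bone came from 5 wells. The stromal well, at 526.6 CPM, was among the highest of day 16.

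Wisp2 (chr2:163820861-163833146, plus strand) encodes CCN5, the CCN protein that lacks the C-terminal module of the family. It had no count in any of the 54 and 53 cultured wells, which allows up to 5.56% and 5.66% of wells with a count, and up to 0.0185 and 0.0170 CPM in the sums. In bone and fat pad a minority of 4T1 wells expressed it strongly. The highest was at 349.5 CPM at day 4, 879 at day 10, 1056 at day 16 and 2129 in the fat pad. In 4T1.2 day 4 bone the highest well was at 21.1 CPM. Medians stayed between 0 and 1.59 CPM. Wells with 10 CPM or more were 5 of 137 (3.65%, 1.195 to 8.31) at day 4, 12 of 54 (22.2%, 12.0 to 35.6) at day 10, 29 of 71 (40.8%, 29.3 to 53.2) at day 16, 15 of 85 (17.6%, 10.2 to 27.4) in the fat pad and 1 of 47 in 4T1.2. The plot of levels by well shows the gap between these wells and the rest.

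**Figure D1:**
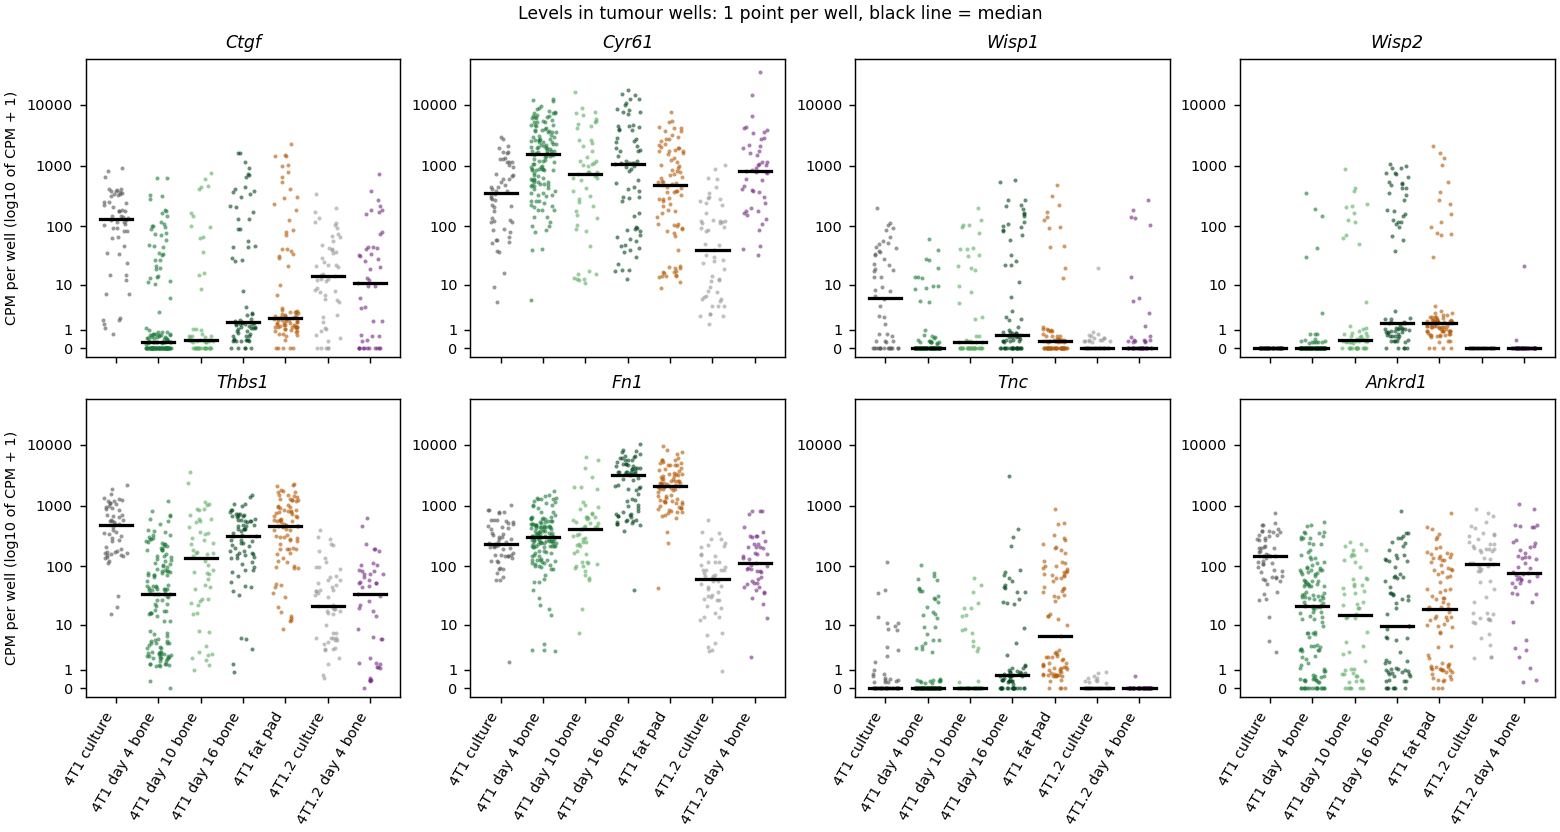
Level of each gene in every tumour well (y axis, CPM on a log10 scale after adding 1) by group (x axis), 1 point per well, with the median as a black line. Ctgf and Wisp2 form a band near 0 and a separate set of high wells in bone and fat pad, while Fn1 moves as a whole to medians of 3209 CPM at day 16 and 2124 CPM in the fat pad.

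Thbs1 (chr2:118111876-118127133, plus strand) encodes thrombospondin-1, which binds CD47 and CD36 and activates latent TGF-beta. Its lowest, median and highest levels were 15.7, 472 and 2191 CPM in 4T1 culture, 0, 34.7 and 1202 at day 4, 0.985, 135 and 3590.4 at day 10, 0.828, 311 and 1487 at day 16 and 8.40, 466 and 2302 in the fat pad. In 4T1.2 the median was 21.5 CPM in culture, with wells from 0.466 to 400.4, and 34.1 CPM at day 4, with wells from 0 to 621. Culture and fat pad were thus alike in the middle of their ranges, and day 4 was the lowest group of 4T1.

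Tnc (chr4:63959785-64047015, minus strand) encodes tenascin-C, a hexamer of the stem cell and metastatic niche. Its median was 0 in culture, at day 4 and at day 10, 0.662 CPM at day 16 and 6.17 CPM in the fat pad. The highest wells were at 119 CPM in culture, 104 at day 4, 64.5 at day 10 and 869 in the fat pad, where 41 of 85 wells reached 10 CPM. At day 16 the highest well, at 3083 CPM, was the stromal one, and 18 of 71 wells reached 10 CPM. In 4T1.2 no well reached 1 CPM in either group.

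Fn1 (chr1:71585520-71653200, minus strand) encodes fibronectin. Its lowest, median and highest levels were 1.74, 236 and 1020.5 CPM in 4T1 culture, 3.09, 309 and 1740.1 at day 4, 7.16, 408 and 6335 at day 10, 39.7, 3209 and 10128 at day 16 and 44.1, 2124 and 9596 in the fat pad. In 4T1.2 they were 0.898, 62.2 and 584 CPM in culture and 2.19, 113 and 827 CPM at day 4. Day 16 bone and fat pad stood above all other groups: the interquartile range of fat pad wells, 1181 to 3291 CPM, did not overlap that of day 10 wells, 158 to 649.7 CPM. In the order of medians of each of the 8 genes this was the only pair of neighbouring groups whose interquartile ranges did not overlap.

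Ankrd1 (chr19:36111961-36120099, minus strand) encodes a nuclear ankyrin repeat protein of stretched muscle and injured tissue. Its lowest, median and highest levels were 2.89, 149 and 755 CPM in 4T1 culture, 0, 21.1 and 534 at day 4, 0, 14.7 and 252 at day 10, 0, 9.60 and 827 at day 16 and 0, 19.2 and 768 in the fat pad. In 4T1.2 they were 2.07, 110.05 and 876 CPM in culture and 0.248, 78.1 and 1062 CPM at day 4 in bone. Medians were highest in the cultures and, among the tumours, in 4T1.2 day 4 bone. At least 10 CPM was found in 52 of 54 wells of 4T1 culture against 81 of 137, 30 of 54, 35 of 71 and 51 of 85 wells at days 4, 10 and 16 and in the fat pad.

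Low levels have to be read beside those of host wells, which gave counts of some members in nearly every well. Median host Cyr61 in 4T1 was 9.17, 13.8 and 29.1 CPM in bone at days 4, 10 and 16 and 16.1 CPM in the fat pad, and in 4T1.2 day 4 bone it was 8.71 CPM, while in the 6 named classes of blood cells described below it lay between 8.68 and 16.2 CPM. A level of Cyr61 at or below that of the host wells of its group is therefore not read as raised in tumour cells. Whether such a level is background or low expression was not tested. Wells of 4T1.2 culture had a lower quartile of 7.24 CPM. By the upper quartile of the host wells of its own group, Cyr61 was higher in 136 of 137, 47 of 54 and 64 of 71 tumour wells of 4T1 in bone at days 4, 10 and 16, in 71 of 85 of the fat pad and in 47 of 47 of 4T1.2. For Wisp2 the tumour medians of 1.59 CPM at day 16 and in the fat pad stood beside host medians of 1.27 and 1.83 CPM, and only 31 of 71 and 26 of 85 tumour wells were above the host upper quartile. Ctgf medians of 1.64 and 2.14 CPM stood likewise beside host medians of 0.998 and 1.97 CPM. At day 16 and in the fat pad the medians of Wisp2 and Ctgf thus lay close to those of host wells. In 4T1.2 day 4 bone they did not for Ctgf, with a tumour median of 10.8 CPM against 0.345 in host wells and 31 of 47 tumour wells above the host upper quartile. Fn1 was high in the 10 host wells of the fat pad, with a median of 923 CPM. There 47 of 85 tumour wells were above the host upper quartile of Fn1, against 70 of 71 in day 16 bone and 23 of 47 in 4T1.2.

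Groups were compared on summed counts. The counts of all tumour wells of a group were added, expressed as CPM with TMM scaling (a correction for differences in composition) and compared as log2 ratios after adding 5 CPM to each. A gene with 5 CPM in either group was measured, and one at least 2-fold apart was called higher or lower. Intervals in brackets are exact 95% Poisson intervals of a sum. They and the limits for counts of 0 cover counting error only, because reads without molecular identifiers are not independent molecules and because they leave out the spread between cells and animals. In sums, fewer expressing cells and less RNA per cell cannot be told apart, and the shares of wells above serve for that.

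The comparison of 4T1 day 4 bone with 4T1 culture asks what differed soon after arrival in bone. Cyr61 was higher at day 4, at 2312 CPM (2308 to 2317) against 589.8 (586.2 to 593.4), a log2 ratio of 1.96. Wisp2 was the other gene called higher, at 6.95 CPM (6.71 to 7.20) against no count in culture, and it was no longer called when its highest well was left out, which brought day 4 to 2.802 CPM. Ctgf was lower, at 31.7 CPM (31.2 to 32.2) against 178 (176 to 180.4), a log2 ratio of -2.32. Thbs1 was lower at 103 CPM against 508, a log2 ratio of -2.26, Wisp1 at 2.03 against 23.2, a log2 ratio of -2.005, and Ankrd1 at 65.6 against 184, a log2 ratio of -1.42. Fn1 at 407 against 293 CPM and Tnc at 5.95 against 4.91 CPM were within 2-fold. All 8 were measured: 2 were called higher, where 6.29% of all 10197 genes were, and 4 lower, where 2.64% were. Cyr61 and its fellow TEAD targets Ctgf and Ankrd1 therefore lay on opposite sides. Neutrophil markers in tumour wells differed between the same groups, with a median sum of 690.1 CPM at day 4 and 0.363 in culture, and their part in these ratios was not tested. Host wells of day 4 held 31.8 CPM of Cyr61 and 252 CPM of Thbs1 in their own sums. Tumour wells scaled with them held 2322 and 103 CPM.

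The genes around them gave this picture at day 4. Of 13 measured genes of TGF-beta signalling 6 were higher and 1 lower, with a median log2 ratio of 0.95 against 0.05 over all genes. The feedback regulators Skil and Smad7 were at 229.9 against 74.8 CPM and 96.0 against 36.1, while the receptor Tgfbr2 was lower at 55.3 against 126 CPM. Of 15 Hippo pathway genes 1 was higher, Wwtr1 (TAZ itself) at 212 against 73.7 CPM, and none lower. Of 15 other TEAD targets none was higher and 2 were lower, Ajuba at 63.3 against 163 CPM and F3 at 14.7 against 42.6. Among 12 SRF and MRTF genes, the actin-linked partner pathway, only Filip1l was lower, at 27.2 against 68.5 CPM. Of 15 receptors for the 8 proteins 4 were higher, among them Sdc2 at 268 against 90.5 CPM, Lrp1 at 53.5 against 17.1 and the thrombospondin receptor Cd47 at 446 against 207, and Itgb6 was lower at 1.804 against 19.4. Of 6 other matricellular genes 3 were higher, with osteopontin (Spp1) at 2372 against 584 CPM, Sparc at 407 against 163 and Tgfbi, which is also in the TGF-beta list, at 19.6 against 1.17.

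In 4T1.2 the same step, day 4 bone against culture, gave another set. Cyr61 was higher at 2099 CPM (2091 to 2106) against 143 (141 to 145), a log2 ratio of 3.83, and Wisp1 was higher at 15.4 CPM (14.8 to 16.1) against 0.440 (0.348 to 0.550), a log2 ratio of 1.91 that rested mainly on the 5 wells named above. Ctgf was at 65.4 against 43.9 CPM, Thbs1 at 73.8 against 60.04, Fn1 at 181 against 95.4 and Ankrd1 at 156 against 194, all within 2-fold. Wisp2 and Tnc were under 5 CPM in both. Of the 6 measured, 2 were called higher and 0 lower, where 5.24% and 4.03% of all 10266 genes were. Without the wells whose keratin sum was less than 10-fold above the blood sum, the log2 ratio of Cyr61 was 4.46 and that of Fn1 moved from 0.89 to 1.17, which is past 2-fold. The median blood sum over all tumour wells of this group was 212 CPM, against 46.8 CPM in 4T1 at day 4 and 0 in culture, and its part was not tested beyond leaving those wells out.

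Of 14 TGF-beta genes in 4T1.2, 5 were higher and 2 lower, with a median of 0.76 against -0.13 over all genes. Smad7 was at 70.6 against 7.24 CPM and Bhlhe40 at 94.8 against 20.3, and Tgfbr2 was again lower, at 54.03 against 123 CPM. None of 16 Hippo genes was called. Of 16 TEAD targets 1 was higher, Gadd45a at 17.3 against 5.46 CPM, and 1 lower, Nt5e at 34.5 against 85.8. SRF and MRTF genes had 1 of 12 higher, receptors 1 of 15 higher and 2 lower, and other matricellular genes 1 of 8 higher and 2 lower. The 4T1 and 4T1.2 steps use separate cultures, and the heat map sets their ratios side by side.

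**Figure D2:**
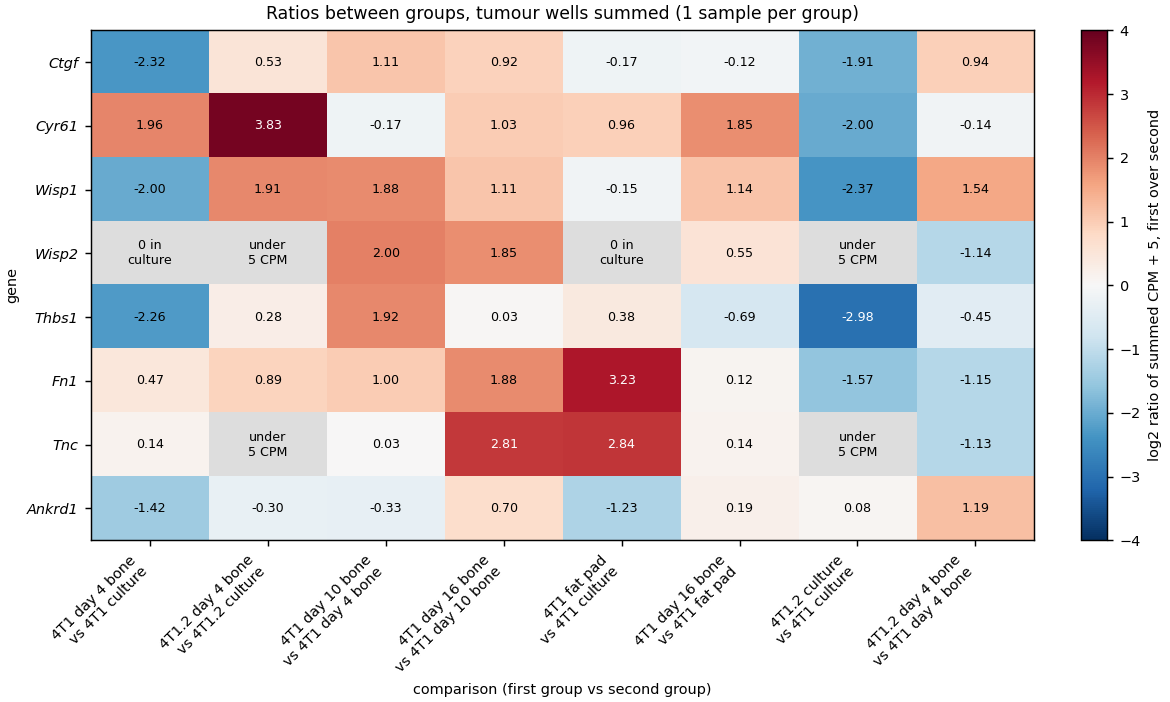
Log2 ratio of summed CPM plus 5 for each gene (vertical axis) in the 8 comparisons of tumour wells (horizontal axis), red where the group named first is higher. Grey cells mark genes at 0 in culture or under 5 CPM in both groups; Cyr61 is the only gene above 1 at day 4 against culture in both lines with counts in the culture.

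From day 4 to day 10 in bone, Thbs1, Wisp1 and Wisp2 of 4T1 were higher. Ctgf and Fn1 were called higher too, but lost the call without the highest well of each group. Thbs1 was at 401 CPM (397 to 404) against 103 (102 to 103), a log2 ratio of 1.92. Wisp2 was at 42.9 against 6.95 CPM, a log2 ratio of 2.00, and Wisp1 at 20.9 against 2.03, a log2 ratio of 1.88. Ctgf was at 74.3 against 31.7 CPM, a log2 ratio of 1.11 that became 0.91 without the highest well of each group. Fn1 was at 822 against 407 CPM, a log2 ratio of 1.00 that became 0.81 in the same way. Fn1 also lost the call in totals without TMM, at 0.94, and with 10 CPM added in place of 5, at 0.995. Without the wells of a gap under 10-fold it was lost as well, at 0.96. Cyr61 at 2054 against 2312 CPM, Tnc at 6.16 against 5.95 and Ankrd1 at 51.4 against 65.6 were within 2-fold. Thus 5 of 8 were called higher and none lower, where 5.15% and 2.38% of all 10404 genes were. Thbs1 and Cyr61 were also high in the endothelial well, at 1050.03 and 1205 CPM; without it and the stromal well the log2 ratio of Thbs1 was 1.88. In wells whose keratin sum was at least 10-fold above the blood sum, Thbs1 was at 234 against 99.8 CPM, a log2 ratio of 1.19.

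Among other TEAD targets 4 of 16 were higher at day 10: Nt5e at 599 against 117 CPM, Gadd45a at 31.8 against 6.77, Nuak2 at 34.5 against 13.9 and Tgfb2 at 18.05 against 1.63. Tgfb2 rested on the endothelial well, without which it stood at 2.38 CPM. Of 14 receptors Itga5, the fibronectin receptor subunit, was higher at 364 against 139 CPM, as was Itgb3 at 9.79 against 1.42. Other matricellular genes had 3 of 7 higher, with Spp1 at 8190.2 against 2372 CPM, and Sparcl1, at 95.4 CPM, was down to 1.18 CPM without the endothelial well. TGF-beta genes had 2 of 14 higher, and Hippo and SRF genes had none of 16 and none of 12.

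From day 10 to day 16, Fn1 was higher at 3045 CPM (3038 to 3052) against 822 (817 to 827), a log2 ratio of 1.88, and Wisp2 at 168 against 42.9 CPM, a log2 ratio of 1.85. Tnc was at 73.4 against 6.16 CPM, a log2 ratio of 2.81 that became 1.53 without the stromal and endothelial wells. Cyr61 was at 4189.6 against 2054 CPM, a log2 ratio of 1.03 that became 0.33 without the wells over 10000000 counts and 0.37 with each well weighted equally, so that call rested on the deep wells. Wisp1 was at 51.04 against 20.9 CPM, a log2 ratio of 1.11 that became 0.91 without the stromal and endothelial wells. Ctgf at 145 against 74.3 CPM had a log2 ratio of 0.92, which became 1.11 without the wells over 10000000 counts. Thbs1 at 410.3 against 401 CPM and Ankrd1 at 86.8 against 51.4 were within 2-fold. In the full sums 5 of 8 were called higher and none lower, where 5.86% and 6.72% of all 10609 genes were.

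Of the other genes at day 16, Spp1 was higher at 23381 against 8190.2 CPM. The calls of Thbs2 (41.06 CPM), Postn (9.82), Igfbp3 (31.8), Myl9 (11.2) and Tpm2 (8.24) as higher rested on the stromal well, without which they were at 1.05, 0.0496, 0.149, 0.0946 and 1.28 CPM. With the stromal and endothelial wells left out, 1 of 7 other matricellular genes was higher and 1 lower. Of 15 TEAD targets 1 was higher and none lower, and of 12 SRF genes 1 was higher. Of 13 TGF-beta genes 3 were higher and 1 lower, of 14 receptors 1 was higher, and of 16 Hippo genes none was called. The lists were not recounted without the deep wells. In the full sums the same lists gave 3 of 10 higher and 1 lower, 2 of 17 and 1, 3 of 15 and 0, 3 of 14 and 1, 0 of 14 and 0, and 0 of 16 and 0. Tgfb3, a TGF-beta ligand, was at 115 against 44.3 CPM.

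The fat pad tumour was compared with the same 4T1 culture as day 4 bone, so the ratios of both share that control. Fn1 was at 2800.03 CPM (2793 to 2807) against 293 (291 to 296), a log2 ratio of 3.23, and Tnc at 66.2 against 4.91 CPM, a log2 ratio of 2.84. Wisp2 was at 113 CPM (112 to 114) against no count. Ankrd1 was lower, at 75.2 against 184 CPM, a log2 ratio of -1.23. Cyr61 was at 1156 against 589.8 CPM, a log2 ratio of 0.96 just short of 2-fold, and Ctgf at 158 against 178, Wisp1 at 20.5 against 23.2 and Thbs1 at 663 against 508 were close to culture. In all, 3 of 8 were called higher and 1 lower, where 13.0% and 9.71% of all 10517 genes were. The near-equal sums of Ctgf hid unequal wells: 85.2% of cultured wells but 30.6% of fat pad wells reached 10 CPM.

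TGF-beta genes had 8 of 13 higher and none lower in the fat pad, with a median of 1.14 against 0.02 over all genes, led by Tgfbr3 at 26.5 against 1.26 CPM, Bhlhe40 at 392 against 76.6, Smad3 at 98.9 against 23.3 and Skil at 281 against 74.8. TEAD targets had 4 of 15 higher, among them Nt5e at 568 against 101 CPM and Amotl1 at 257 against 60.7, and Ajuba lower at 36.8 against 163. Receptors had 5 of 15 higher and 1 lower, with Lrp1 at 92.05 against 17.1 CPM and Itgb5 at 82.5 against 22.1, and other matricellular genes 4 of 7 higher, with Spp1 at 9109 against 584. None of 16 Hippo genes and none of 12 SRF genes was called.

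Day 16 bone against the fat pad compares the latest time in bone with the only time in the fat pad, day 22. Site and day differ together here, so their parts cannot be told apart. Fn1 at 3045 against 2800.03 CPM, Ctgf at 145 against 158, Ankrd1 at 86.8 against 75.2, Wisp2 at 168 against 113 and Thbs1 at 410.3 against 663 were within 2-fold. Cyr61 was higher in bone at 4189.6 against 1156 CPM, a log2 ratio of 1.85 that was 1.15 without the wells over 10000000 counts. Wisp1 was higher at 51.04 against 20.5 CPM, a log2 ratio of 1.14 that was 0.99, just short of 2-fold, without the stromal well. Tnc was at 73.4 against 66.2 CPM in the full sums, but at 27.8 against 65.5 CPM, a log2 ratio of -1.10, without the stromal well, so it was then called lower in bone. In the full sums 2 of 8 were called higher and none lower, where 6.66% and 5.17% of all 10632 genes were.

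Around them, Sparc was higher at day 16 than in the fat pad, at 1052 against 168 CPM, and at 802 against 167 without the stromal well, and Spp1 was at 23381 against 9109. Wwtr1 was higher at 299.9 against 144 CPM and Nf2, an activator of the Hippo kinases, lower at 32.9 against 79.4, among 2 of 16 Hippo genes higher and 1 lower. Receptors had 2 of 15 higher, Itga5 at 226 against 73.2 CPM and Sdc2 at 363 against 174. TGF-beta genes had 3 of 13 higher, with Smad7 at 129 against 46.2 CPM, and other matricellular genes 3 of 9. TEAD targets had 1 of 16 and SRF genes 1 of 15 higher, Igfbp3 and Myl9, which both had their counts in the stromal well.

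Between the lines in culture, 5 of the 8 genes were lower in 4T1.2. Thbs1 was at 60.04 CPM (58.9 to 61.2) against 508 (505 to 512), a log2 ratio of -2.98. Wisp1 was at 0.440 against 23.2 CPM, Cyr61 at 143 against 589.8, Ctgf at 43.9 against 178 and Fn1 at 95.4 against 293, with log2 ratios of -2.37, -2.004, -1.91 and -1.57. Ankrd1 was at 194 against 184 CPM, and Wisp2 and Tnc were under 5 CPM in both. Thus 5 of 6 measured were called lower and none higher, where 4.19% and 4.45% of all 10081 genes were. Of 11 TGF-beta genes 4 were lower, among them Smad7 at 7.24 against 36.1 CPM, Bhlhe40 at 20.3 against 76.6 and Skil at 25.5 against 74.8, and Tgfbr3 was higher at 22.8 against 1.26. Receptors had 4 of 16 higher, led by Itga8 at 23.7 against 2.36 CPM, and 5 lower, led by Itgb6 at 0.212 against 19.4. Other matricellular genes had 5 of 6 higher, with Mfge8 at 661 against 161 CPM, and Fbln2 lower at 107 against 386.5. Hippo genes had none of 16 called, TEAD targets 1 of 15 higher and SRF genes 1 of 12 lower.

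In bone at day 4 the lines differed in another way. In sums Cyr61 was nearly equal, at 2099 CPM in 4T1.2 and 2312 in 4T1, and Thbs1 was at 73.8 against 103. Per well the medians of Cyr61 were 825 and 1555 CPM, and the top 5 wells held 60.6% of its counts in 4T1.2. Ankrd1 was higher in 4T1.2 at 156 CPM (154 to 158) against 65.6 (64.9 to 66.4), a log2 ratio of 1.19, and Wisp1 at 15.4 against 2.03, a log2 ratio of 1.54. Fn1 was lower at 181 against 407 CPM, a log2 ratio of -1.15 that became -0.90 without the wells of small keratin excess. Wisp2 at 0.443 against 6.95 CPM and Tnc at 0.00671, which is a single count, against 5.95 were called lower but lost the call with 10 CPM added in place of 5. Ctgf at 65.4 against 31.7 CPM had a log2 ratio of 0.94, and 1.06 in totals without TMM. In all 2 of 8 were called higher and 3 lower, where 3.38% and 6.24% of all 10378 genes were. These 2 groups also serve as the numerators of the day 4 steps above, so these ratios are not independent of them. Of the lists, TGF-beta genes had 2 of 14 lower, with Skil at 96.4 against 229.9 CPM, receptors 1 of 15 higher and 3 lower, among them Itgb1 at 370.5 against 985 CPM, other matricellular genes 2 of 8 higher and 3 lower, TEAD targets 1 of 16 higher and 2 lower, SRF genes 1 of 12 higher and Hippo genes 0 of 15.

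Tumour wells were set against the host wells of the same sort, with scaling of their own. Cyr61 was higher in tumour wells at 2322 against 31.8 CPM at day 4, 1768 against 20.5 at day 10, 4012 against 56.9 at day 16 and 2298 against 164 in 4T1.2 day 4 bone, with log2 ratios of 5.98, 6.12, 6.02 and 3.77. Ankrd1 had log2 ratios of 3.66, 2.96, 3.91 and 4.11 and Ctgf of 2.54, 3.69, 4.56 and 1.89 in the same order. Wisp2 was higher in tumour wells at days 4, 10 and 16, with 6.98 against 0.166, 36.9 against 0.516 and 161 against 1.502 CPM. The day 4 call of Wisp2 was lost without the highest well of each side, at 2.81 against 0.0345 CPM, and with 10 CPM added in place of 5. Wisp1 was higher at days 10 and 16 and in 4T1.2, with log2 ratios of 1.72, 2.87 and 1.73. Tnc was called higher at day 16, at 70.3 against 0.551 CPM, or 25.9 against 0.548 without the stromal well. It was within 2-fold at day 4, at 5.98 against 2.56 CPM, and at day 10, at 5.30 against 0.633. Without the highest well of each side, day 4 gave 5.34 against 0.0308 CPM and a call. Wells with a 10-fold gap gave calls at both days, with log2 ratios of 1.16 and 1.06. Adding 1 CPM gave a call at day 10, and the other settings gave none. With only the wells whose keratin and blood sums differed at least 10-fold, the log2 ratio of Cyr61 was 6.96 at day 4 and 5.84 in 4T1.2. Ctgf in 4T1.2 was at 71.7 against 15.7 CPM, and at 55.7 against 3.34 without the highest well of each side.

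Thbs1 was the gene called lower in tumour wells of day 4 bone by sums, while its medians lay the other way. In 4T1 the medians were 34.7 CPM in tumour and 3.40 in host wells, and 83 of 137 tumour wells were above the host upper quartile. In 4T1.2 they were 34.1 and 4.79 CPM, and 5 of 47 tumour wells were above the host upper quartile. Host wells with 100 CPM or more of Thbs1 were 81 of 359 in 4T1 and 62 of 188 in 4T1.2. The 4T1 day 4 sums were 103 against 252 CPM, a log2 ratio of -1.25, or of -0.999, just short of a call, with wells weighted equally. In 4T1.2 day 4 bone it was lower too, at 80.8 against 173 CPM, a log2 ratio of -1.05. At day 10 it was at 345 against 202 CPM, within 2-fold, but at 274 against 118 CPM, a log2 ratio of 1.18 and called higher, without the highest well of each side. Totals without TMM also gave a call at day 10, with a log2 ratio of 1.001, and 5 of the 41 host wells held 93.9% of the host counts. At day 16 it was higher at 393 against 80.4 CPM, a log2 ratio of 2.22. Fn1 was higher in tumour wells at days 4, 10 and 16, with log2 ratios of 1.196, 1.99 and 2.93. In 4T1.2 it was at 198 against 367 CPM, but at 189.5 against 159 when the highest well of each side was left out, and that host well, at 40939 CPM of Fn1, carried 59595 CPM of the cartilage collagen Col2a1.

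Counted over genes, 5 of 7 measured, Wisp2 among them, were called higher and 1 lower at day 4, where 18.2% and 18.8% of all genes were. At day 10, 6 of 8 were higher and none lower, where 19.6% and 21.8% were, and at day 16 all 8 were higher, where 21.3% and 19.9% were. In 4T1.2 day 4 bone 4 of 6 were higher and 1 lower, where 17.1% and 19.7% were. No ratio was formed for the fat pad, which had 10 host wells. In the same wells of 4T1 day 4, 7 of 15 Hippo pathway genes were higher and 1 lower. Among those higher, Wwtr1 was at 213 against 1.87 CPM in tumour and host wells. Tead1 was at 38.5 against 0.567 CPM and Yap1 at 19.6 against 2.03. Of 15 TEAD targets 9 were higher and 2 lower. The wells were split by keratin and blood cell genes, so these levels do not test the activity of the pathway. TEAD targets were higher in 11 of 16 at day 10, 10 of 15 at day 16 and 10 of 17 in 4T1.2, and lower in 1, 1 and 2.

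**Figure D3:**
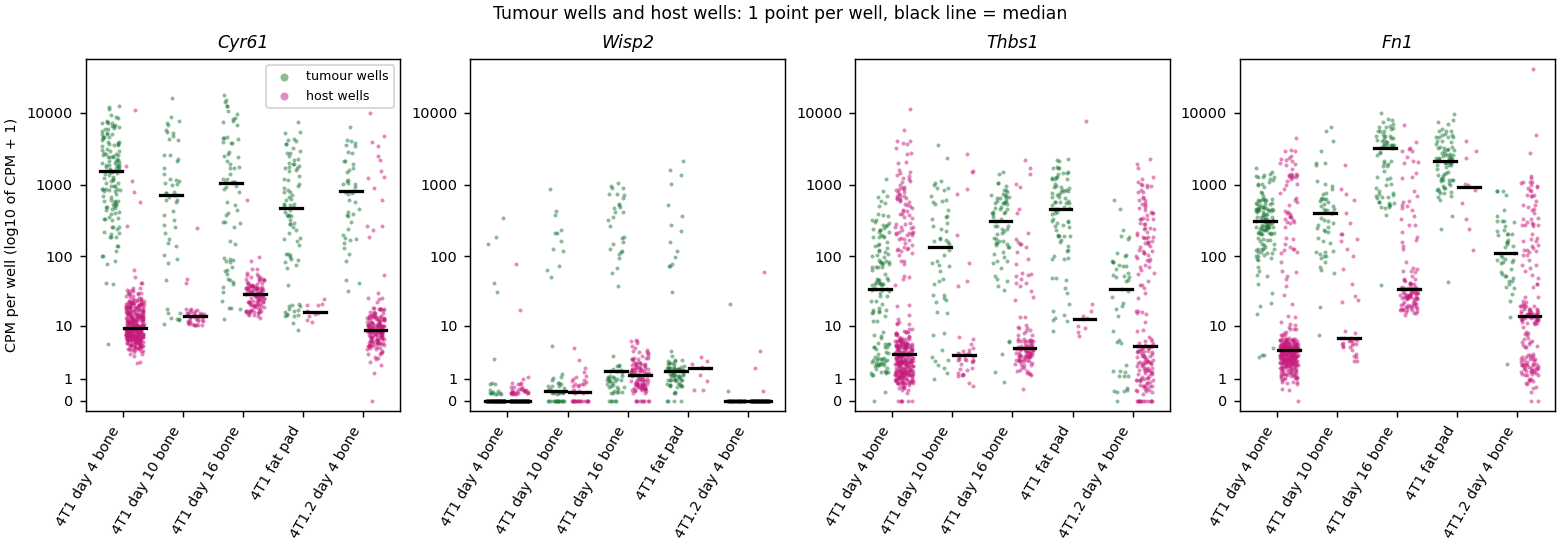
Level of Cyr61, Wisp2, Thbs1 and Fn1 (y axis, CPM on a log10 scale after adding 1) in tumour wells (green) and host wells (magenta) of the 5 groups that had host wells, 1 point per well, median as a black line. Most host wells lie far below the tumour wells in Cyr61, with host medians from 8.71 to 29.1 CPM and single wells up to 10869.5, while 81 of 359 host wells at 4T1 day 4 reach 100 CPM of Thbs1.

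The host wells were clustered on their other genes, without the 8, into 13 clusters, of which 10 could be named from their markers. They were neutrophil-like (173 wells), B lineage-like (215), monocyte or macrophage-like (115), erythroid-like (54), plasmacytoid dendritic-like (26) and T or NK-like (22), and 112 wells stayed unnamed. At 4T1 day 4, median Thbs1 was highest in a monocyte or macrophage-like cluster of 28 wells led by Vcan and Ccr2. Its 20 wells of that group had a lowest, median and highest level of 0.755, 829 and 11526 CPM. Its 6 wells of 4T1.2 day 4 had a median of 200.4 CPM, below the 294 CPM of 11 neutrophil-like wells of that group. In the same 20 wells Fn1 had a lowest, median and highest level of 5.06, 1377 and 3087 CPM. The other monocyte or macrophage-like cluster, led by C1qa and C1qc, had a median of 3.57 CPM of Thbs1 in its 15 wells of 4T1 day 4.

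Thbs1 also appeared in a part of the wells of other classes. It reached 10 CPM in 38.3% of monocyte or macrophage-like, 29.5% of neutrophil-like and 17.7% of B lineage-like wells. In the larger neutrophil-like cluster its median was 294 CPM in 11 wells of 4T1.2 day 4 and 4.81 CPM in 53 wells of 4T1 day 4, with wells from 0 to 1968 and from 0.81 to 1453 CPM that overlapped. At day 16 the 24 wells of that cluster went no higher than 13.5 CPM. Fn1 reached 10 CPM in 80.9% of monocyte or macrophage-like wells, although at day 16 the lowest host well of any kind held 14.7 CPM of it. The 16 wells of an unnamed cluster led by Mmp12 and Arg1 had median Fn1 of 696 CPM in 8 wells of day 16 and 1013 CPM in 8 of the fat pad.

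High Cyr61 among host wells was found in the unnamed cluster of 22 wells led by Col2a1 and Col1a1, with a median of 1083 CPM in 16 wells of 4T1.2 day 4 and 1145 CPM in 5 of 4T1 day 4. Krt8 and Krt18 marked this cluster too, with medians of at least 50 CPM and means at least 2-fold above other host wells. The well highest in Cyr61, from 4T1 day 4 at 10869.5 CPM, had 687 CPM of keratin against 1233 of blood genes. It held 9.92 CPM of Col1a1 and 0 of Col2a1. The next, from 4T1.2 day 4 at 10110.5 CPM, had 34.4 CPM of keratin and 47.6 of blood genes. It held 1.06 CPM of Col1a1 and 0 of Col2a1. High Cyr61 and high collagen thus did not always share a well. The host well highest in Wisp1 and Tnc, at 665 and 572 CPM, also lay in this cluster and held 146982 CPM of Col1a1. No well of the 6 named classes reached 10 CPM of Ctgf or Tnc. Median Cyr61 of those classes stayed between 8.68 and 16.2 CPM. Outside this cluster single wells were high in a CCN gene. Wisp2 was at 79.3 CPM in a B lineage-like well and Wisp1 at 237 CPM in a T or NK-like one. Cyr61 reached 1287 CPM in a well of another unnamed cluster in 4T1.2 day 4. It reached 624 CPM in a neutrophil-like well of day 16 and 269 CPM in a B lineage-like well of 4T1 day 4.

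**Figure D4:**
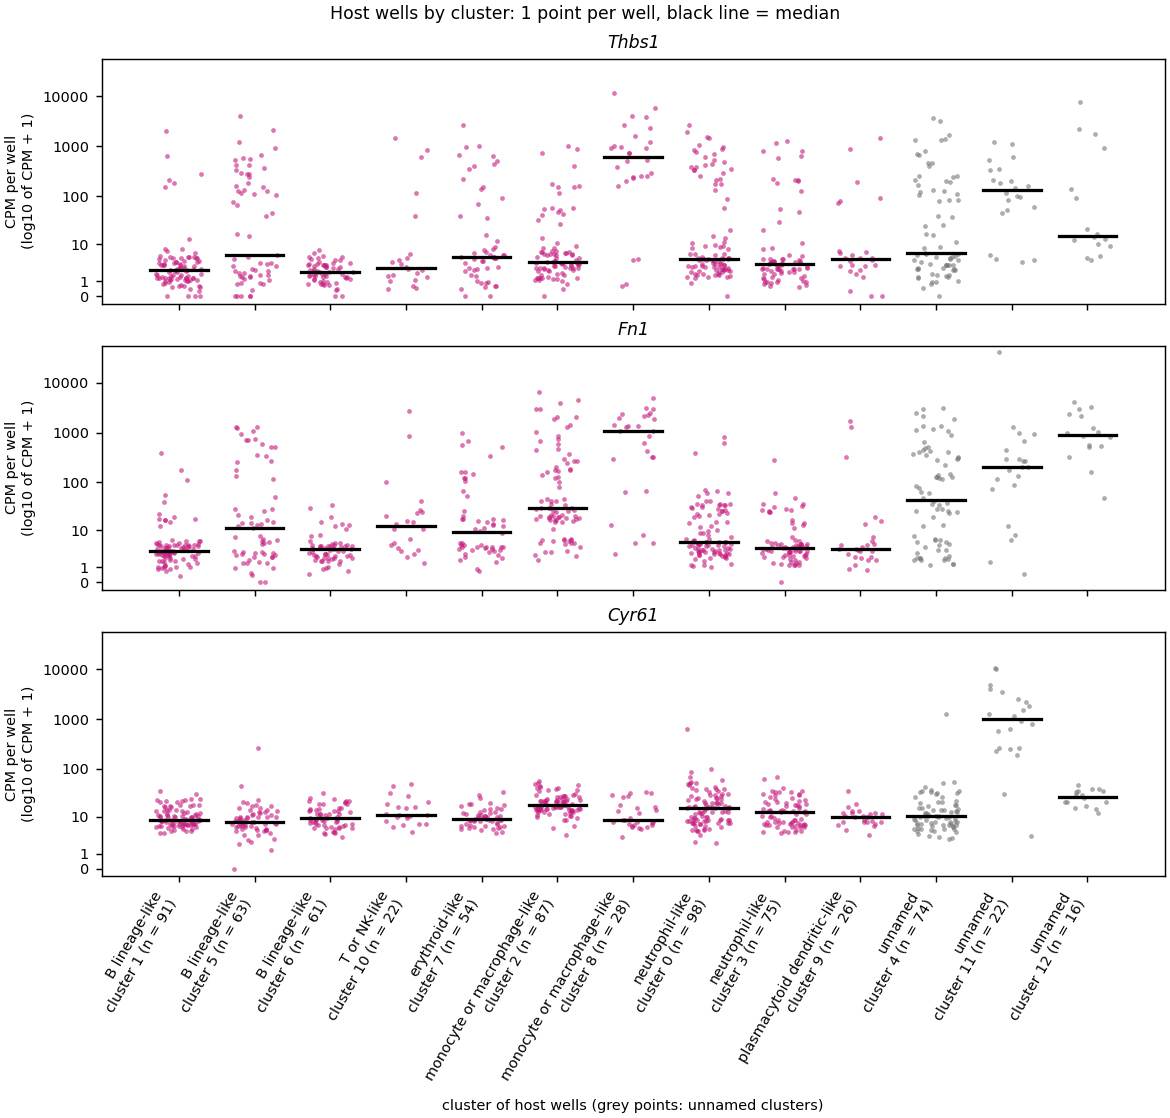
Level of Thbs1, Fn1 and Cyr61 (y axis, CPM on a log10 scale after adding 1) in host wells by cluster (x axis), 1 point per well, median as a black line, grey points for unnamed clusters. Cluster 8, monocyte or macrophage-like, is high in Thbs1 and Fn1, and unnamed cluster 11 is high in Cyr61.

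Within groups of tumour wells, members varied together in part. Spearman's rho over the wells of a group, averaged over the groups, was 0.431 for Cyr61 and Ankrd1 (0.205 to 0.694 over 7 groups of 47 to 137 wells), 0.398 for Ctgf and Cyr61 (0.0465 to 0.655) and 0.396 for Ctgf and Ankrd1 (0.197 to 0.690). Thbs1 and Fn1 gave 0.298 (-0.0665 to 0.513), and Cyr61 and Thbs1 0.248. Wisp1 and Wisp2 gave 0.228 over the 5 groups with counts of both. The wells of a group share their sort, and depth and many zeros also enter these values, so they are descriptions. The 3 TEAD targets thus formed the set with the highest values, although in sums Cyr61 and the other pair parted at day 4, and Tnc stood apart from the rest, with means between -0.097 and 0.070.

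**Figure D5:**
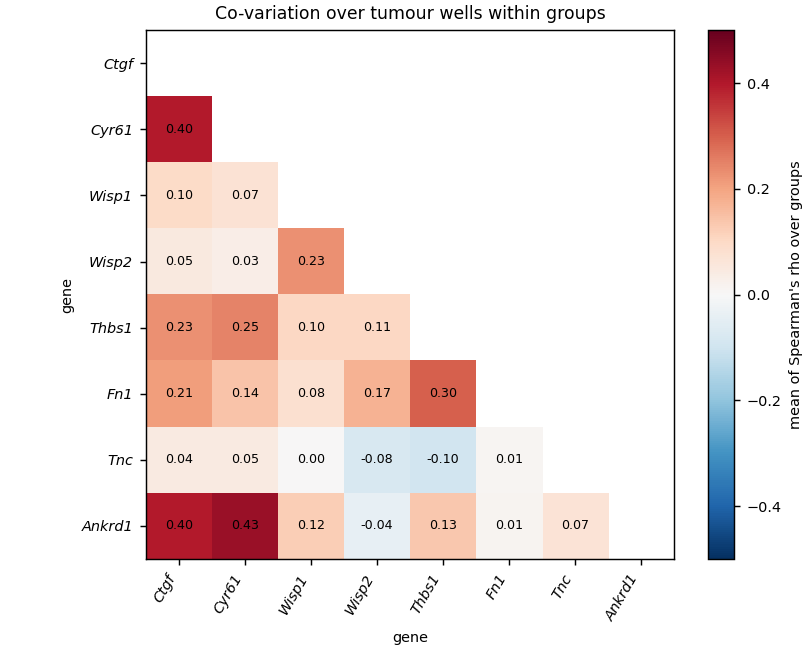
Mean of Spearman's rho over tumour wells within groups for each pair of genes (both axes), as printed in each cell and by colour. Cyr61, Ctgf and Ankrd1 have the highest values with each other, at 0.40 to 0.43.

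Among 10276 other genes, those most like Ctgf by the same mean were Amotl2 at 0.387, Csf1 at 0.284 and Prss23 at 0.257. Cyr61 was most like Plk2 at 0.395, Amotl2 at 0.377 and Csf1 at 0.326, and Ankrd1 most like Amotl2 at 0.407, Ajuba at 0.347 and Csf1 at 0.344. Amotl2 and Ajuba are on the list of TEAD targets, which was chosen with earlier results of these data known. Plk2, Csf1 and Prss23 are not on it. Fn1 was most like Cp at 0.397, Clu at 0.355 and Mgp at 0.347. Thbs1 was most like Litaf at 0.273 and Wisp2, over 5 groups, most like Osmr at 0.419. Wisp1 and Tnc reached 0.269 with Gm2a and 0.237 with Sfn. The value below which 99% of candidates lay was between 0.125 and 0.217, depending on the gene.

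Per kilobase of exon the order of the 8 differed by group. After Cyr61 came Thbs1 in 4T1 culture at 89.7 CPM per kb, with Ankrd1 at 68.2 and Ctgf at 66.9, and Fn1 at 34.2 in day 4 bone, with Ankrd1 at 22.3. At day 10 Fn1 at 66.0 and Thbs1 at 61.9 were next, and at day 16 Fn1 at 262 and Wisp2 at 87.8. In the fat pad they were Fn1 at 227 and Thbs1 at 103. In both 4T1.2 groups Ankrd1 was second, at 66.7 and 58.1 CPM per kb. Tnc and Wisp1 stayed under 10 CPM per kb in every group.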

How the data were processed

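Full-length libraries of single sorted cells were analysed from the deposited count table, which holds the authors' raw read counts per gene on build mm10, with no molecular identifiers. The submitters' processing notes name STAR 2.6.0c and featureCounts 1.6.2, beside Seurat 3.1.2, R 3.6.2, Trim Galore 0.6.6, FastQC 0.11.7 and SAMtools 1.7, without their roles or order; per the labels' protocols, cells with an mCherry qPCR Ct above 30 were discarded before sequencing. No source used here gives the strand setting of the counting.

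Of 40840 entries, 78 ERCC spike-ins (0.670% of counts), 2 reporters (0.187%) and 4 repeated date-like symbols (0.0149%) were left out of library sizes. Cells needed 1000 genes, 50000 counts and at most 25% mitochondrial counts. Tumour well sums were compared as log2 CPM ratios after adding 5 CPM, with TMM factors from edgeR 4.0.16, at 5 CPM in either group and 2-fold. No test was run, because each group is 1 sample. Host wells were clustered in scanpy 1.11.5 (2000 genes without the 8, 20 components, 15 neighbours, Leiden resolution 1). No doublet caller was run; wells with a small keratin to blood gap were left out as an alternative. Positions are from GENCODE M21. The count code was checked on simulated data. Every gene of the 8 is named. Of each list, up to 4 genes furthest in the direction of most calls and 2 against it could be named, and for likeness the 3 highest mean correlations. The 8 genes and the lists of related genes were chosen with earlier results of these data known. The alternatives were other scaling (none, DESeq2 1.42.0 size factors), other pseudocounts and filters, equal weighting of wells, and leaving out wells.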

Additional observations from a re-analysis of the deposited data

Results flagged for a closer look

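The log2 ratios of Ctgf, Wisp1 and Thbs1 at day 4 in bone against culture had opposite signs in the 2 lines, though only Wisp1 was at least 2-fold apart in both. For Ctgf the log2 ratio was -2.32 in 4T1 and 0.53 in 4T1.2. For Wisp1 it was -2.005 in 4T1 and 1.91 in 4T1.2, where 5 wells held 94.6% of the counts. Per well, median Ctgf in 4T1.2 was lower in bone, at 10.8 CPM against 14.4 in culture, which is the direction of 4T1. For Thbs1 the log2 ratio was -2.26 in 4T1 and 0.28 in 4T1.2. In culture both lines already differed, with Ctgf at 178 CPM in 4T1 and 43.9 in 4T1.2 and Thbs1 at 508 and 60.04 CPM. The difference between the lines was not tested, because each group is 1 sample.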

How the results depend on the processing

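No paired analysis was possible because the labels tie no cell of one group to a cell of another and no test was run. Depth limits little here, with 138848006 to 451319997 counts behind each tumour sum, and the number of expressing wells limits Wisp1, Wisp2 and Tnc. None of the 1056 log2 ratios of the 8 genes recomputed under other settings reversed the direction of a call. Yet 526 of the 1056 moved outside the narrow range set by the counting intervals, and some calls were gained or lost. Shares of wells with a gene at an equal depth of 500000 counts were recomputed at full depth or at 10 CPM. Of these 192 values 123 lay outside the exact 95% interval. Of 264 counts of called genes 25 moved by over 1.5 times. With 1 CPM added in place of 5, genes called higher numbered 815 in 4T1.2 day 4 against culture, 845 in day 10 against day 4, 1039 in day 16 against day 10, 696 in 4T1.2 against 4T1 culture and 624 in 4T1.2 against 4T1 day 4. Genes called lower numbered 487 in 4T1 day 4 against culture, and then 698, 512 and 1093 in the first 3 of those comparisons, 1015 in day 16 against fat pad and 1004 between the lines at day 4. With 10 CPM added, calls higher and lower were 415 and 160 for 4T1 day 4 against culture, 315 and 273 for 4T1.2, 339 and 137 for day 10, 330 and 434 for day 16, 424 and 301 for day 16 against fat pad and 288 and 255 between cultures, and 204 were higher between the lines at day 4. Leaving out the highest well of each group per gene gave 340 higher at day 10. At 5 CPM the counts were 641 and 269, 538 and 414, 536 and 248, 622 and 713, 708 and 550, 449 and 422, and 351 and 648, in the order 4T1 day 4, 4T1.2 day 4, day 10, day 16, day 16 against fat pad, cultures, lines at day 4. Leaving out the stromal and endothelial wells, or the wells over 10000000 counts, was chosen after seeing the data.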
